A study of Mus musculus with 12 samples.

Results

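The 10 genes described here encode matricellular proteins and their close partners, secreted proteins that sit in the extracellular matrix and tune how cells adhere and signal rather than carry load. They were taken by symbol from the deposited tables: Postn, Tnc, Tnxb, Thbs1, Thbs2, Thbs4, Spp1, Sparc, Sparcl1 and Fn1, which are 10 of the 27998 genes listed for each library, and all 10 were found. Their mRNA was read in single cells of mouse mammary gland after ovarian follicle depletion and hormone replacement. The deposited values are counts of unique molecular identifiers (UMIs, 1 per captured mRNA molecule) from a droplet assay that reads the 3′ end of each transcript, and levels are given as UMIs per 1000000 UMIs (CPM) of all the cells of a class in a library. Each mRNA is counted once at its 3′ end, and no level was compared between genes.

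Each group was 1 library of number 4 mammary glands, with lymph nodes removed, from female C57BL/6J mice aged 43 weeks. Intact mice received no VCD, and in all 11 other groups 4-vinylcyclohexene diepoxide (VCD, 160 mg/kg per day for 15 days) had depleted the ovarian follicles. A diet began on day 100 in these 11 groups, and no such day is given for Intact mice. VCD_Vehicle, VCD_E2 and VCD_E2_P4 received vehicle, estradiol (E2, 1 µg per animal per day for 1 week) or E2 with progesterone (P4, 1 mg per animal per day). VCD_Low_PBDE, VCD_Low_E2 and VCD_Low_E2_P4 received these same hormone treatments after 20 weeks of food with a mixture of 3 polybrominated diphenyl ethers (PBDE-47 at 0.05 mg/kg per day, PBDE-100 at 0.0028 and PBDE-153 at 0.0063). VCD_High_PBDE, VCD_High_PBDE_E2 and VCD_High_PBDE_E2_P4 received them with higher doses for 1 week (1, 0.056 and 0.126 mg/kg per day), and the dose of PBDE and how long it was fed cannot be told apart. VCD_E2_ICI received E2 and 5 mg of the estrogen receptor antagonist ICI, and VCD_Vehicle_NormEnv was a vehicle group with possible PBDE exposure from cage plastics. The model removes ovarian follicles in adult mice, and hormone was given for 1 week, so the data hold 1 time point. The first 9 of the VCD groups form a layout of 3 hormone levels by 3 PBDE levels. Within it each hormone level has 3 libraries, 1 at each PBDE level, and these stand in as replicates. The number of mice in a library is not given in the sources used here, so p-values measure the spread between these libraries.

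The 12 libraries held 58620 barcodes and from 41737881 to 109224969 UMIs, and 46257 cells passed the filters. VCD_Low_E2_P4 stood apart, with 10006 barcodes against 2497 to 5838 in the others and many cells of a shallow cluster, which made up 13.2% of its Dpp4 Pi16, 16.8% of its Fabp4 Cxcl14, 24.9% of its Penk Enpp2 and 9.55% of its Gdf10 F3 cells. These cells were kept in the subsets, and leaving the cluster out gave 22 E2 calls of the members, the same number as with it. Pairs of libraries shared from 1 to 185 cell barcodes (at most 3.75% of the smaller library). Intact, VCD_Vehicle, VCD_E2, VCD_E2_P4 and VCD_Low_PBDE shared 95 to 185 with each other, and VCD_Low_E2 and VCD_Low_E2_P4 shared 84. VCD_Vehicle_NormEnv, VCD_High_PBDE and VCD_E2_ICI shared 27 to 35, and other pairs at most 20. VCD_Low_PBDE shared 5 and 14 with its hormone libraries and VCD_High_PBDE 4 and 2. The hormone fits have no term for this pattern, and its part was not tested. Fibroblasts numbered 31117, and marker genes that are not members placed them in 4 subsets: 11379 cells led by Dpp4 and Pi16, 7316 led by Fabp4 and Cxcl14, 3630 led by Penk and Enpp2, 3768 led by Gdf10 and F3, and 5024 in no subset. Genes that were not used for the gates were highest by median in the subset they are known from, not always without overlap. Anxa3 had a median of 1887 CPM over 12 libraries in the Dpp4 Pi16 subset against 127.3 to 200.6 CPM in the other subsets, and Cst3 2173 CPM in the Gdf10 F3 subset against 671.5 to 1161 CPM. Anxa3 did not overlap the other subsets, and the lowest library for Cst3 (1506 CPM) lay under the highest of the Fabp4 Cxcl14 subset (1520 CPM). Smoc2, at 777.1 CPM in the Fabp4 Cxcl14 subset (329.4 to 1574 CPM), overlapped the Penk Enpp2 and Gdf10 F3 subsets, and Cthrc1, at 106.7 CPM in the Penk Enpp2 subset (13.86 to 674.4 CPM), overlapped all 3 others. The study itself had named Postn, Tnc, Sparc and Fn1 as fibroblast markers or hormone-responsive genes from data that include the Intact, VCD_Vehicle, VCD_E2, VCD_E2_P4 and VCD_E2_ICI libraries, so these members are not independent evidence of a direction.

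Matricellular proteins are low in most resting adult tissue and are made in quantity during development, wound repair and remodelling. In the mammary gland the stroma around ducts is rebuilt with each change in ovarian hormones, and estradiol and progesterone drive duct growth and side branching. Periostin (Postn) and tenascin-C (Tnc) are ligands of integrins made where tissue is being rebuilt, while tenascin-X (Tnxb) is a constitutive companion of collagen fibrils in loose connective tissue. The thrombospondins (Thbs1, Thbs2, Thbs4) bind cell receptors and other matrix proteins, and thrombospondin-1 also activates latent TGF-beta. Osteopontin (Spp1) is a cytokine-like integrin ligand of bone and of immune cells. SPARC binds collagen and helps it leave the cell, SPARC-like 1 (Sparcl1) is its closest relative, and fibronectin (Fn1) forms the fibrils on which other matrix proteins are laid down.

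Sequences before an annotated RefSeq start of Postn and Sparc are shown because these genes had the smallest p for E2 among the members. A RefSeq promoter table on GRCm38.p6 held 7 of the 10 members, and the 250 bases before each annotated start were searched. Postn lies on chromosome 3, from 54361109 to 54391037 on the plus strand of GRCm38, and its second annotated start is preceded by chr3:54360857-54361106 (plus strand, written 5′ to 3′). Capitals mark a TATA box (TATAAA on the strand of the gene, found in 7.59% of 32851 promoters of the same length) that begins 26 bases before the start. Sparc lies on chromosome 11, from 55394500 to 55423183 on the minus strand, and the table's window is chr11:55420081-55420330 (minus strand, written 5′ to 3′), which lies inside that span, before an internal start and not before the 5′ end of the locus. Capitals there mark TGACC, 1 arm of the palindrome that estrogen receptors bind, which begins 45 bases before the start.
Postn start 2: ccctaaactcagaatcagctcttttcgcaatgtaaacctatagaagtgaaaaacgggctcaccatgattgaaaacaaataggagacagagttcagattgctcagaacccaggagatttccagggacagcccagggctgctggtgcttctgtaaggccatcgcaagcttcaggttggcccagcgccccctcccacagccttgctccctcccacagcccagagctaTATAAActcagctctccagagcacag
Sparc: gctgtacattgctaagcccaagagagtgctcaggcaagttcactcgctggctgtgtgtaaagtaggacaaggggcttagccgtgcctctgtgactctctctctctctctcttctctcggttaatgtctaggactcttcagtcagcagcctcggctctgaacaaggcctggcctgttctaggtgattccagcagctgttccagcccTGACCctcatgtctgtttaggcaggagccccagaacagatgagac
A single arm (GGTCA or TGACC, either strand) occurred in 35.2% of all promoters, so its presence in the windows of Sparc, Postn start 1 and Tnxb is a common match. The whole palindrome (both arms, 3 bases apart) occurred in 0.0639% of promoters and in none of the members' windows. The progesterone receptor core (TGTTCT or AGAACA), found in 16.1% of promoters, matched in the windows of Sparc and Tnxb. TGANTCA, the AP-1 motif, found in 6.75% of promoters, matched upstream of Tnxb.

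The 4 fibroblast subsets differed in which matricellular genes they carried. The Penk Enpp2 subset was raised for Tnc, Thbs4, Spp1, Postn, Thbs1, Sparcl1, Thbs2 and Sparc, the Fabp4 Cxcl14 subset for Sparcl1, Postn, Thbs1 and Sparc, the Dpp4 Pi16 subset for Fn1, Tnxb and Thbs2, and the Gdf10 F3 subset for Thbs4 and Sparcl1, each against the mean of the other 3 subsets within the same 12 libraries. Of 40 member and subset combinations, 33 passed the test (edgeR's quasi-likelihood test with a library block, Benjamini-Hochberg adjusted p under 0.05). The background of this contrast is high, since 71.5% of genes tested passed in the Dpp4 Pi16, 60.0% in the Fabp4 Cxcl14, 59.6% in the Penk Enpp2 and 49.9% in the Gdf10 F3 subset, so a call is common and the sizes carry the information. The members' median difference was 1.48 on the log2 scale in the Penk Enpp2 subset and -1.57 in the Dpp4 Pi16 subset, beside 0.00 and -0.01 over all genes tested.

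Tnc lies on chromosome 4, from 63959785 to 64047015 on the minus strand. Its level ranged over 12 libraries from 62.95 CPM through a median of 188.2 to 343.7 CPM in the Penk Enpp2 subset, and in the Dpp4 Pi16 subset from 0 through 0.484 to 1.80 CPM. It reached at most 26.4 CPM in the Fabp4 Cxcl14 and 6.94 CPM in the Gdf10 F3 subset, so no library of another subset overlapped the Penk Enpp2 range. The fitted difference for the Penk Enpp2 subset was 6.65 ± 0.32 (log2, SE; edgeR adjusted p = 2.43e-20). A Tnc UMI was found in 37.9% of these 3630 cells (95% exact binomial interval 36.3 to 39.5%), or 29.2% of the 3338 cells with at least 5000 UMIs after thinning each to that number, whereas T cells, which should lack the gene, had one in 0.665% of cells (median 5154 UMIs against 11964). Most Penk Enpp2 cells thus had no Tnc UMI at this depth.

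Thbs4 (chromosome 13, 92751590 to 92794818) and Spp1 (chromosome 5, 104435118 to 104441050) were rare in all fibroblasts, with most of their UMIs among the gated cells in the same subset. Thbs4 ranged from 1.59 through 7.24 to 114.6 CPM there and stayed at or under 1.31 CPM in the Dpp4 Pi16 and 0.664 CPM in the Fabp4 Cxcl14 subset. In the Gdf10 F3 subset it reached 12.34 CPM, passed as raised too (1.76 ± 0.42, edgeR adjusted p = 0.000546), and overlapped the Penk Enpp2 range. The Penk Enpp2 difference was 4.44 ± 0.33 (edgeR adjusted p = 1.85e-14). Spp1 ranged from 0 through 2.00 to 22.2 CPM in the Penk Enpp2 subset and the difference was 4.46 ± 0.37 (edgeR adjusted p = 9.92e-13). Only 3.88% of Penk Enpp2 cells held a Thbs4 UMI and 1.57% held a Spp1 UMI. In 1 small fibroblast cluster of 46 cells, cluster 37, led by Sfrp5, Angptl7 and Tenm2, Spp1 stood at 640.4 CPM and Thbs4 at 372.9 CPM with no Tnc UMI. This cluster's mean marker score was 0.18 for fibroblasts and 0.15 for Schwann cells, and Cldn1, Itgb4 and Gfra1 were also among its leading genes. Of its cells 25 were in the Penk Enpp2 subset, where they held 205 of the 300 Spp1 UMIs and 110 of the 941 Thbs4 UMIs. Without the cluster, a choice made after seeing the data, the Penk Enpp2 differences were 3.08 for Spp1 (edgeR adjusted p = 6.8e-08) and 4.35 for Thbs4 (edgeR adjusted p = 3.9e-14).

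Taken over all 12 libraries, Postn was raised in the Penk Enpp2 and Fabp4 Cxcl14 subsets and lowered in the Dpp4 Pi16 and Gdf10 F3 subsets. Over 12 libraries it ranged from 432.7 through 2040 to 9755 CPM in the Penk Enpp2, from 279.5 through 760.9 to 5262 CPM in the Fabp4 Cxcl14, from 249.7 through 311.7 to 494.5 CPM in the Dpp4 Pi16 and from 48.75 through 105.5 to 395.1 CPM in the Gdf10 F3 subset. The ranges of neighbours in this order overlapped. Without hormone (VCD_Vehicle, VCD_Low_PBDE and VCD_High_PBDE) Postn stood at 409.5, 275.7 and 285.5 CPM in the Dpp4 Pi16 subset. It stood at 722.6, 432.7 and 449.2 CPM in the Penk Enpp2 and 429, 312.5 and 377.5 CPM in the Fabp4 Cxcl14 subset. The Gdf10 F3 subset held 60.35, 48.75 and 90.49 CPM. The lower Postn of the Dpp4 Pi16 subset was not tested in libraries without hormone alone. The fitted differences were 2.58 ± 0.23 in the Penk Enpp2 subset (edgeR adjusted p = 2.39e-12) and -2.82 ± 0.30 in the Gdf10 F3 subset (edgeR adjusted p = 2.34e-10).

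Sparcl1, on chromosome 5 from 104079111 to 104113733, separated the Dpp4 Pi16 subset from the rest. Its range was 17.64 to 47.66 CPM there (median 31.36), against 1175 to 2508 CPM in the Fabp4 Cxcl14 subset (median 2043), 621.7 to 1503 CPM in the Penk Enpp2 and 611.5 to 1031 CPM in the Gdf10 F3 subset. No library of the Dpp4 Pi16 subset came near the others, and the difference was -5.06 ± 0.13 (edgeR adjusted p = 1.34e-29). Sparc, its relative, varied less between subsets. Its medians were 6750 CPM in the Fabp4 Cxcl14, 5317 in the Penk Enpp2, 3729 in the Gdf10 F3 and 2606 CPM in the Dpp4 Pi16 subset, with ranges that overlapped between neighbours in this order and differences of 0.81 ± 0.13 for the Fabp4 Cxcl14 (edgeR adjusted p = 1.17e-06) and -1.01 ± 0.14 for the Dpp4 Pi16 subset (edgeR adjusted p = 7.91e-08).

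Fn1 (chromosome 1, 71585520 to 71653200, minus strand) had its highest median in the Dpp4 Pi16 subset, where it ranged from 3190 through 3982 to 5007 CPM. In the Fabp4 Cxcl14 subset it ranged from 127.2 through 427.6 to 2956 CPM and lay below all the Dpp4 Pi16 libraries. The Penk Enpp2 libraries reached 4514 CPM and overlapped them, and the Dpp4 Pi16 difference was 2.04 ± 0.23 (edgeR adjusted p = 6.24e-10).

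Tnxb (chromosome 17, 34670535 to 34719815) was the most even member, with medians of 1088, 714.1, 831.6 and 816.5 CPM in the Dpp4 Pi16, Fabp4 Cxcl14, Penk Enpp2 and Gdf10 F3 subsets. The Dpp4 Pi16 subset was higher by 0.46 ± 0.04 (log2, SE; edgeR adjusted p = 3.37e-13). Thbs2 (chromosome 17, 14665500 to 14694235) had medians of 470.9, 270.6, 508.4 and 217.8 CPM in the same order, and its difference was 0.69 ± 0.10 in the Penk Enpp2 subset (edgeR adjusted p = 5.07e-07). Thbs1 (chromosome 2, 118111876 to 118127133) had medians of 75.71, 313.4, 476.5 and 189.9 CPM. Its median was lowest in the Dpp4 Pi16 subset, with a difference of -2.12 ± 0.15 (edgeR adjusted p = 1.75e-15), the subset in which Tnxb was highest.

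**Figure D1:**
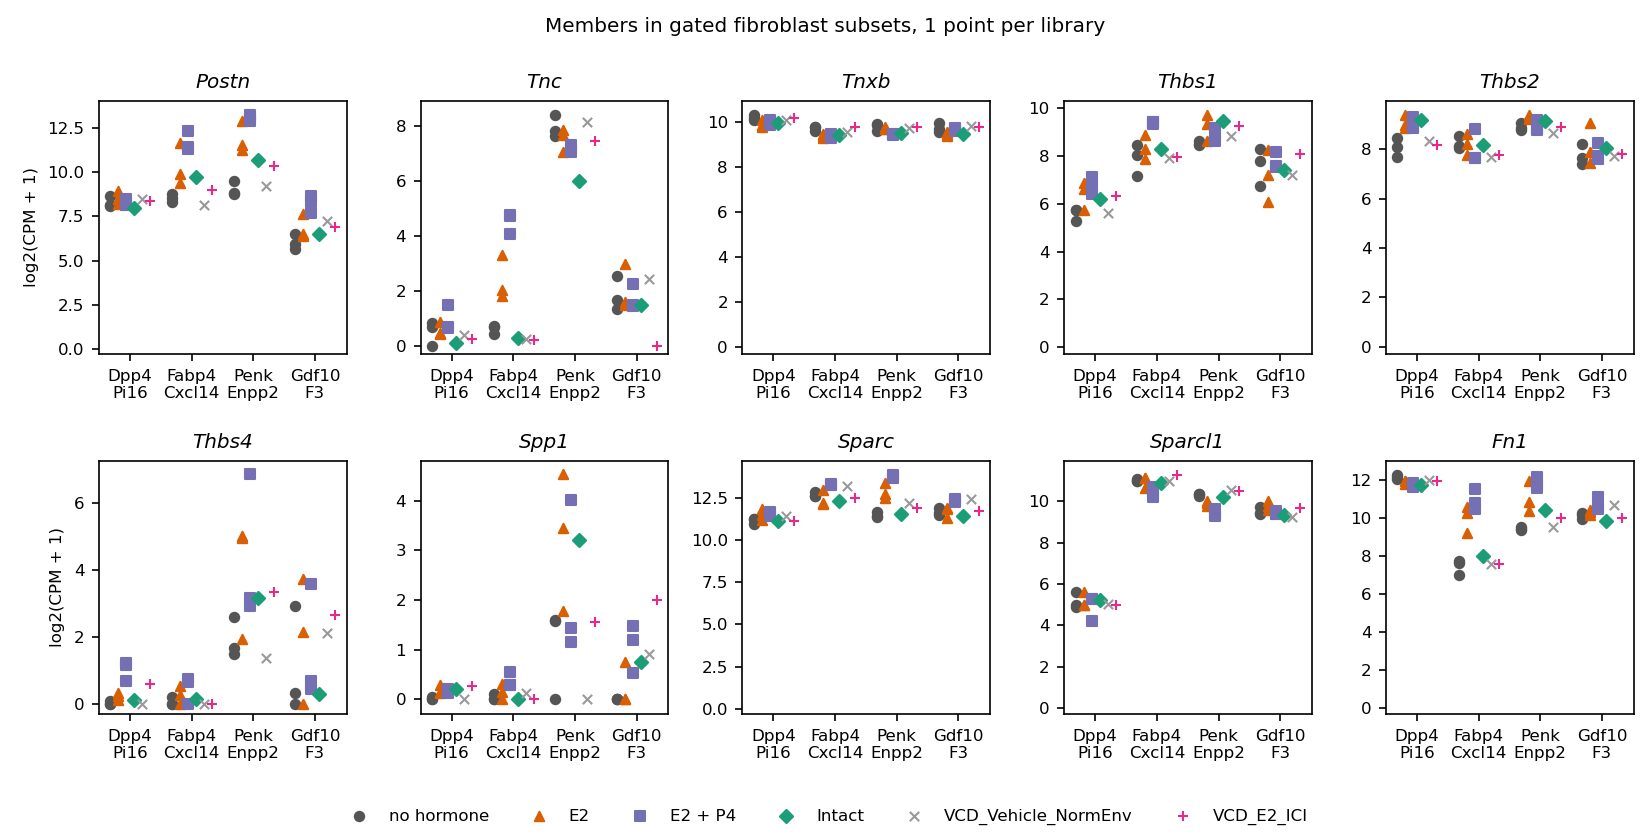
Level of each of the 10 members, as log2(CPM + 1), in each of 12 libraries (points, coloured by treatment) for the 4 fibroblast subsets. Tnc, Thbs4 and Spp1 stand up in the Penk Enpp2 subset, Sparcl1 is low in every library of the Dpp4 Pi16 subset, and Postn in the Penk Enpp2 subset spreads from 432.7 CPM without hormone to 9755 CPM with E2 and P4.

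E2 replacement went with a different matricellular profile in the Penk Enpp2 subset: Postn, Fn1, Sparc, Thbs4 and Thbs1 rose and Sparcl1, Tnc and Tnxb fell, while Thbs2 did not pass the test. Spp1 passed as higher too, with most of its UMIs in a few cells of 1 small cluster. The comparison sets the mean of the E2 and E2 with P4 libraries against the libraries without hormone, over the 9-library layout with PBDE level as a term. All 10 members were tested in this subset and 9 were called, where 31.1% of all genes tested were called. Spp1, counted among the 9, passed the low-count filter only through libraries with hormone, so its call is not independent evidence of a rise. The members' median was 1.13 (log2) beside -0.02 over all genes.

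Postn stood at 722.6, 432.7 and 449.2 CPM in the libraries without hormone (VCD_Vehicle, VCD_Low_PBDE and VCD_High_PBDE), at 3014, 2455 and 7592 CPM with E2 (at no, low and high PBDE) and at 7802, 8702 and 9755 CPM with E2 and P4. No library with hormone overlapped those without, and the high PBDE library was the highest of the 3 with E2. The fitted difference was 3.39 ± 0.31 (edgeR adjusted p = 2.58e-05). Within single PBDE levels the E2 library was above the one without hormone by 2.06, 2.50 and 4.08 (log2) at no, low and high PBDE. The share of cells with a Postn UMI was 48.1% without hormone, 91.0% with E2 and 96.6% with E2 and P4, and 43.2, 88.4 and 97.2% after thinning to 5000 UMIs per cell, which leaves out 137, 26 and 74 shallower cells, so that the paired shares are not over the same cells.

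Sparc stood at 2660, 2715 and 3297 CPM without hormone, 6714, 5864 and 10610 CPM with E2 and 13260, 14980 and 14160 CPM with E2 and P4. The 3 hormone levels did not overlap. The fitted difference for E2 was 1.78 ± 0.14 (edgeR adjusted p = 9.09e-06), with within-level differences of 1.33, 1.11 and 1.69 for E2 alone. Fn1 stood at 682.6, 741.6 and 662.9 CPM without hormone, 1325, 1851 and 3980 CPM with E2 and 3060, 3515 and 4514 CPM with E2 and P4. No hormone library overlapped those without, although the E2 library at high PBDE lay among those with P4, and the difference was 1.93 ± 0.22 (edgeR adjusted p = 0.000109). Postn, Sparc and Fn1 passed under each of 22 alternative settings.

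Sparcl1 moved the other way from Sparc. It stood at 1213, 1323 and 1323 CPM without hormone, 963.5, 1024 and 873.5 CPM with E2 and 650, 781.3 and 621.7 CPM with E2 and P4, 3 levels without overlap. The fitted difference was -0.74 ± 0.09 (edgeR adjusted p = 0.00016). Tnc, the member with the largest difference for this subset above, was lower with hormone: 343.7, 229.5 and 199.4 CPM without, 233, 202.7 and 132.4 CPM with E2 and 132, 144.4 and 160.6 CPM with both. The groups without hormone and with E2 overlapped. The difference was -0.67 ± 0.16 (edgeR adjusted p = 0.00887) and was lost without VCD_Vehicle (edgeR adjusted p = 0.0899). The share of cells with a Tnc UMI was 43.1, 41.2 and 39.6% at the 3 levels, or 36.7, 29.4 and 26.3% after thinning, without the same shallower cells. The subset held 614, 498 and 203 cells without hormone, 170, 237 and 256 with E2 and 169, 241 and 125 with both. In fibroblasts of no subset Tnc was higher with hormone. It stood there at 8.24, 7.68 and 4.07 CPM without, 17.13, 18.92 and 38.45 with E2 and 76.41, 42.27 and 63.61 CPM with both. Over all fibroblasts Tnc was at 49.86, 23.61 and 14.25 CPM without and 20.29 to 30.67 CPM with hormone. The part of gate membership in the lower Tnc was not tested.

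The rarer members rested on few UMIs. Thbs4 had 13, 28 and 4 UMIs (1.79 to 5.01 CPM) without hormone, 93, 123 and 13 with E2 and 520, 33 and 19 with E2 and P4, so that 1 library held most of the signal. Its groups overlapped, the difference was 3.22 ± 0.77 (edgeR adjusted p = 0.00887), and it was lost without VCD_Vehicle (edgeR adjusted p = 0.162). Spp1 had 12, 11 and 0 UMIs without hormone, 29, 91 and 11 with E2 and 69, 5 and 5 with both. Its difference of 2.53 ± 0.70 (edgeR adjusted p = 0.0189) was lost when any of VCD_Vehicle, VCD_Low_PBDE, VCD_E2_P4 or VCD_Low_E2 was left out (edgeR adjusted p = 0.136, 0.0703, 0.135 and 0.0566). Cluster 37 held 11 of the 12 Spp1 UMIs of VCD_Vehicle, 23 of 29 in VCD_E2, all 91 in VCD_Low_E2 and 15 of 69 in VCD_E2_P4, from 2 to 5 cells in each. Without that cluster Spp1 did not pass the low-count filter and was not tested, while Thbs4 kept its call (4.66, edgeR adjusted p = 0.00221). In VCD_E2_P4, Thbs4 stood at 114.6 CPM over the subset but at 34.7 CPM in cluster 7, which held 122 of its 169 cells. It was at 0 in clusters 5 and 6 there, so a minority of the cells carried most of it. On cluster 7 alone its E2 difference was 2.09 (edgeR adjusted p = 0.0435).

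Thbs1 ranged from 355.9 to 391.6 CPM without hormone, 397.1 to 849.9 CPM with E2 and 397.5 to 580.9 CPM with both, with no overlap between hormone and none. At high PBDE it was level, at 391.6 CPM without hormone, 397.1 with E2 and 397.5 CPM with both. The fitted difference was 0.48 ± 0.16 (edgeR adjusted p = 0.0421). Tnxb ranged from 785.8 to 963.7 CPM without hormone, overlapped with E2 (820.6 to 878.3 CPM) and lay lower with both (701.8 to 713.5 CPM), with a difference of -0.28 ± 0.09 (edgeR adjusted p = 0.0412). Both calls were near the threshold and held in only 2 of 9 fits that left out 1 library. Thbs2, which restrains metalloproteinases and vessel growth, differed by 0.15 ± 0.11 (edgeR adjusted p = 0.314).

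In the Fabp4 Cxcl14 subset, 8 members could be tested, and Fn1, Postn, Tnc and Thbs1 rose and Tnxb and Sparcl1 fell with E2, where 15.9% of genes tested were called. Fn1 stood at 197.3, 213.8 and 127.2 CPM without hormone, 596.5, 1238 and 1543 CPM with E2 and 1800, 1447 and 2956 CPM with both. All 6 hormone libraries lay above the 3 without, and the difference was 2.94 ± 0.34 (edgeR adjusted p = 0.00106). Postn stood at 429, 312.5 and 377.5 CPM without hormone, 669.9, 958.5 and 3292 CPM with E2 and 2760, 2523 and 5262 CPM with both. Its groups with and without hormone did not overlap, and the difference was 2.39 ± 0.34 (edgeR adjusted p = 0.00233). With the E2 with P4 libraries left out it was 1.74 and did not pass (edgeR adjusted p = 0.105).

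Tnc, close to absent from this subset without hormone (9, 8 and 3 UMIs, at most 0.667 CPM), reached 2.57 to 8.89 CPM with E2 and 16.0 to 26.4 CPM with E2 and P4. These levels did not overlap, and the difference was 4.04 ± 0.38 (edgeR adjusted p = 0.000419), the reverse in sign of Tnc in the Penk Enpp2 subset. Tnc passed the low-count filter here only through the libraries with hormone, so its fold over a level near 0 has no readable size. Sparc ranged from 6153 to 7300 CPM without hormone, 4408 to 7934 CPM with E2 and 9915 to 10030 CPM with both, and the fitted difference was 0.13 ± 0.16 (edgeR adjusted p = 0.635). Its E2 libraries lay on both sides of those without hormone, whereas the libraries with P4 were above all of them. Sparcl1 (2041 to 2140 CPM without hormone, 1584 to 2230 with E2 and 1175 to 1668 with both) differed by -0.37 ± 0.10 (edgeR adjusted p = 0.0321), a call that held in 2 of 9 fits with a library left out. Against the library without hormone at the same PBDE level (none, low and high), Sparcl1 with E2 alone was at 0.13, 0.06 and -0.37 (log2). Tnxb (777.8 to 891.3 CPM without hormone, 632.2 to 719 CPM over both hormone levels) differed by -0.37 ± 0.07 (edgeR adjusted p = 0.00765). Thbs1 differed by 0.89 ± 0.26 (edgeR adjusted p = 0.0475), with overlapping groups, and held in 2 of 9 fits that left out 1 library.

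Different clusters made up the Fabp4 Cxcl14 subset at the 3 hormone levels, in a clustering in which the members took no part. Cluster 5, led by H19, Frem1, Adamts18 and Adam12, held 0.975% of the subset's cells without hormone (22 cells), 24.2% with E2 and 37.6% with E2 and P4. Cluster 1 held 43.3, 30.4 and 15.4% and cluster 4 held 45.3, 36.8 and 23.8%. These shares were not tested, and since other genes that differ with hormone took part in the clustering, a change of cells and a change of genes within cells cannot be told apart.

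Within cluster 5 Postn stood at 3546 CPM without hormone (22 cells), 4318 with E2 and 4903 CPM with both. The 12, 5 and 5 cells of VCD_Vehicle, VCD_Low_PBDE and VCD_High_PBDE stood at 3965, 1595 and 5411 CPM. The E2 libraries at no, low and high PBDE stood at 2608, 2843 and 6001 CPM. In clusters 1 and 4 Postn was 308.8 and 312.1 CPM without hormone, 285.5 and 297.6 with E2 and 421.7 and 475.2 CPM with both. Fn1 showed the same layout, at 1963, 2603 and 2729 CPM in cluster 5 against 91.4, 126 and 195.9 CPM in cluster 1. Tnc stood at 1.95, 12.1 and 28.7 CPM in cluster 5, where the value without hormone comes from the 5 cells of VCD_Low_PBDE (6.73 CPM) and the other 2 libraries are at 0, and was at or under 0.83 CPM in clusters 1 and 4. These levels were not tested. Refitted on clusters 1 and 4 alone, a choice made after seeing the data, the E2 difference was 0.23 for Postn (edgeR adjusted p = 0.783), 0.86 for Fn1 (edgeR adjusted p = 0.0498) and 0.17 for Sparcl1 (edgeR adjusted p = 0.363). Tnxb (-0.22, edgeR adjusted p = 0.211) and Thbs1 (0.13, edgeR adjusted p = 0.924) did not pass either, and Tnc was too low there to be tested. Summed over the subset, Postn differed by 2.39, as given above.

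The Penk Enpp2 subset was made mostly of cluster 6 without hormone (62.1%, then 36.5% with E2 and 5.05% with both), with 22.1, 34.8 and 56.6% in cluster 7. Cluster 5 took part here as well, with 0.228% (3 cells), 15.1% and 11.6% of the cells. Its Fn1 stood at 4343 CPM without hormone (those 3 cells), 4678 CPM with E2 and 6354 CPM with both. Postn was 460, 3553 and 5578 CPM at the 3 levels in cluster 6 and 840.8, 6735 and 10440 CPM in cluster 7, and so was higher with hormone in both. Sparc was 2184, 7339 and 11030 CPM in cluster 6 and 2147, 8987 and 14390 CPM in cluster 7. Tnc was lower with hormone in both, at 334.9, 203.4 and 52.4 CPM in cluster 6 and 409.4, 288.1 and 189.1 CPM in cluster 7. With both hormones cluster 6 held only 27 cells, 19 of them from VCD_High_PBDE_E2_P4. Refitted on cluster 7 alone, the E2 difference was 3.20 for Postn, 2.29 for Sparc, 2.14 for Fn1, 2.25 for Thbs1, -0.77 for Sparcl1 and -0.69 for Tnc, and each passed (edgeR adjusted p from 1.56e-08 to 0.0183).

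**Figure D2:**
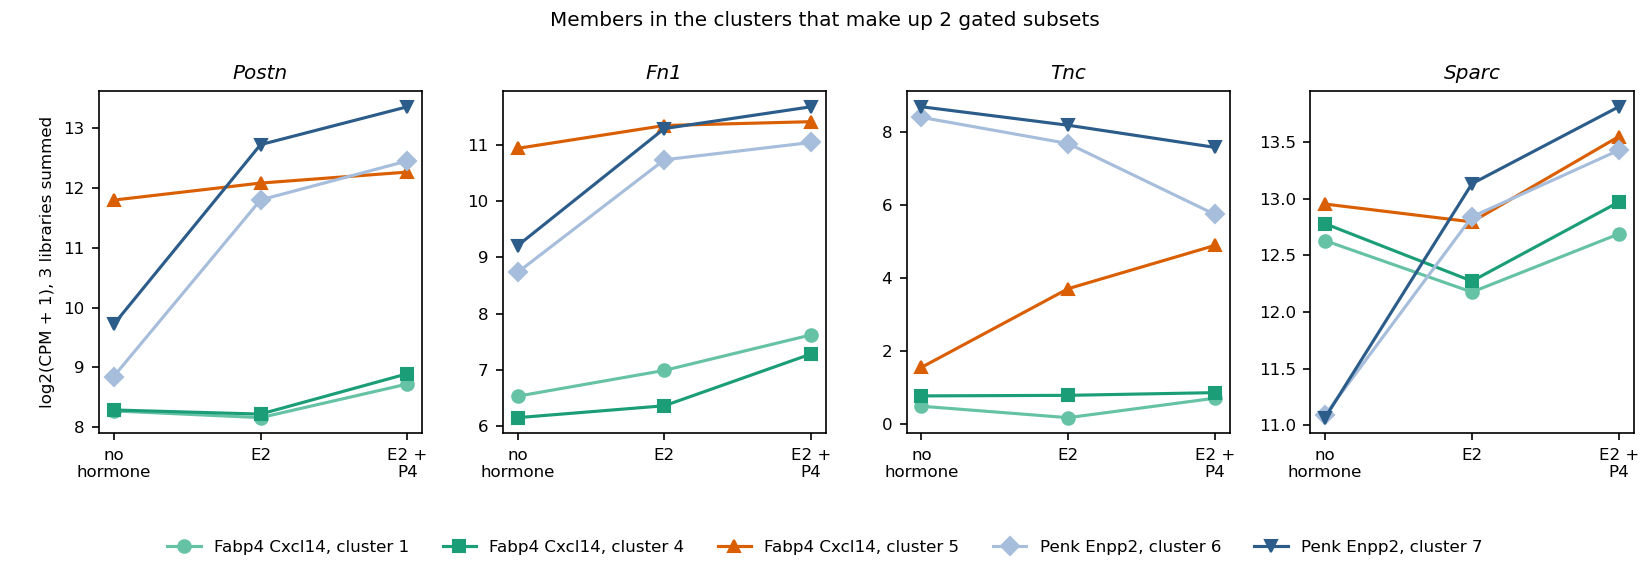
Level of Postn, Fn1, Tnc and Sparc, as log2(CPM + 1), without hormone, with E2 and with E2 and P4 (3 libraries summed at each level) in clusters 1, 4 and 5 of the Fabp4 Cxcl14 and clusters 6 and 7 of the Penk Enpp2 subset. Postn in cluster 5 is high at all 3 levels (3546 to 4903 CPM, the first from 22 cells), whereas in cluster 7 it goes from 840.8 to 10440 CPM.

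Markers of other cell types moved with hormone in these subsets. In the Penk Enpp2 subset the summed pericyte list ranged from 50.06 to 56.84 CPM without hormone and 14.15 to 27.55 CPM with it, the Schwann list from 18.3 to 22.34 and 9.97 to 15.37 CPM and the basal epithelial list from 2.23 to 3.93 and 4.15 to 27.99 CPM, none of which overlapped. The macrophage (2.20 to 5.01 and 3.98 to 11.35 CPM) and adipocyte lists (0 to 0.715 and 0 to 6.85 CPM) overlapped. In the Fabp4 Cxcl14 subset the pericyte list ranged from 47.36 to 57.93 CPM without hormone and 22.21 to 43.06 CPM with it and the endothelial list from 0.239 to 0.963 and 1.01 to 3.19 CPM, without overlap, and the adipocyte list from 4.44 to 11.1 and 10.92 to 82.41 CPM, with overlap at the edge. In the Gdf10 F3 subset the macrophage list ranged from 2.28 to 3.55 CPM without hormone and 4.90 to 11.26 CPM with it, without overlap. Epcam, Krt14, Pecam1 and Cspg4 are at 0 because cells with a UMI of them were removed. On the basal list in the Penk Enpp2 subset, Krt5 was at 0 in the libraries with hormone but not in those without. Oxtr was the reverse, so that list did not move as a whole. Whether these markers come from other cells, and their part in the members' differences, was not tested.

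In the Dpp4 Pi16 subset, of 9 members tested, Thbs2 and Thbs1 rose and Fn1 and Tnxb fell, where 11.7% of genes tested were called. Thbs4 passed as higher too, on few UMIs that came mostly from the libraries with P4. Thbs2 stood at 206.7 to 355.7 CPM without hormone (middle library 274.4), 471.3 to 675.7 with E2 (middle 507.1) and 470.4 to 627 CPM with both (middle 475.6). No hormone library overlapped those without, and the difference was 0.94 ± 0.20 (edgeR adjusted p = 0.0235). Thbs1, also an inhibitor of vessel growth, stood at 37.72 to 53.16 CPM without hormone, 52.56 to 116.3 with E2 and 82.94 to 138.2 CPM with both, and differed by 0.98 ± 0.22 (edgeR adjusted p = 0.0309), with 1 E2 library inside the range without hormone. Fn1 stood at 4243 to 5007 CPM without hormone, 3586 to 4005 with E2 and 3190 to 3662 CPM with both, again without overlap of hormone and none, and differed by -0.36 ± 0.07 (edgeR adjusted p = 0.0184). The sign of Fn1 here is the reverse of that in the Penk Enpp2 and Fabp4 Cxcl14 subsets, while Thbs1 and Tnxb have the same sign in all 3.

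Tnxb in the Dpp4 Pi16 subset (1088 to 1292 CPM without hormone, 880.2 to 1095 CPM with it) differed by -0.27 ± 0.07 (edgeR adjusted p = 0.0376), with ranges that overlapped at their edge. Thbs4 passed (3.30 ± 0.87, edgeR adjusted p = 0.0466) at levels of at most 1.31 CPM, too few UMIs to read a size from. It had 0, 2 and 0 UMIs without hormone, 3, 5 and 1 with E2 and 30, 17 and 17 with both. It thus passed the low-count filter only through the libraries with P4, and the call is not evidence for E2 alone. Postn did not pass (0.07 ± 0.18, edgeR adjusted p = 0.841), with 275.7 to 409.5 CPM without hormone and 280.6 to 494.5 CPM with it. Of 9 fits that left out 1 library, the calls of Thbs2 and Fn1 held in 5 each, that of Thbs1 in 3, that of Thbs4 in 2 and that of Tnxb in 1.

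In the Gdf10 F3 subset 2 of 9 tested members were called, both higher with E2, where 3.23% of genes tested were called. Postn stood at 48.75, 60.35 and 90.49 CPM without hormone, 82.51 to 200 CPM with E2 and 204.5 to 395.1 CPM with both, in which none and E2 overlapped and the libraries with P4 stood above. The difference was 1.57 ± 0.17 (edgeR adjusted p = 0.003). Fn1 (994.5 to 1243 CPM without hormone, 1165 to 1368 with E2 and 1450 to 2226 with both) differed by 0.44 ± 0.10 (edgeR adjusted p = 0.0452), a call that none of 9 fits with a library left out kept. In all 4 subsets together 22 of 36 tests passed, and with 1 library left out the count was lowest, at 11, without VCD_Vehicle or without VCD_Low_PBDE. It was 15 without VCD_Low_E2_P4, the library that stood apart, and 9 without the 3 libraries with P4. Among the 22 are Tnc in the Fabp4 Cxcl14, Thbs4 in the Dpp4 Pi16 and Spp1 in the Penk Enpp2 subset. These passed the low-count filter only through libraries with hormone.

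Whether the E2 difference itself varied between subsets was tested in 1 model over 36 sums, as each subset's E2 effect minus the mean of the other 3, with the library as a block. Of 40 such terms for the members, 11 passed, where 12.9% of genes passed in the Dpp4 Pi16, 2.38% in the Fabp4 Cxcl14, 21.7% in the Penk Enpp2 and 1.59% in the Gdf10 F3 subset. Fn1 differed in each subset: by -2.13 ± 0.26 in the Dpp4 Pi16 (edgeR adjusted p = 1.8e-05), 2.30 ± 0.28 in the Fabp4 Cxcl14 (edgeR adjusted p = 2.92e-05), 0.93 ± 0.27 in the Penk Enpp2 (edgeR adjusted p = 0.0149) and -1.09 ± 0.26 in the Gdf10 F3 subset (edgeR adjusted p = 0.03). Postn differed by -2.29 ± 0.33 in the Dpp4 Pi16 (edgeR adjusted p = 0.000121) and 1.99 ± 0.36 in the Penk Enpp2 subset (edgeR adjusted p = 0.000264). Tnc differed by 4.33 ± 1.03 in the Fabp4 Cxcl14 (edgeR adjusted p = 0.0213) and -2.44 ± 0.66 in the Penk Enpp2 subset (edgeR adjusted p = 0.00857). In the Fabp4 Cxcl14 subset Tnc had 9, 8 and 3 UMIs without hormone, so the size of that term cannot be read. The Penk Enpp2 term for Tnc is set against a mean that includes this Fabp4 Cxcl14 effect. Its size cannot be read either, and within the Penk Enpp2 subset Tnc differed by -0.67. The Sparc and Sparcl1 effects in the Penk Enpp2 subset differed from the other subsets by 1.47 ± 0.23 (edgeR adjusted p = 5.9e-05) and -0.62 ± 0.17 (edgeR adjusted p = 0.00779), and that of Thbs2 in the Dpp4 Pi16 subset by 0.80 ± 0.25 (edgeR adjusted p = 0.0359). Of 9 fits that left out 1 library, the call held in 4 for Fn1 in the Gdf10 F3, 5 for Thbs2 in the Dpp4 Pi16 and 6 for Tnc in the Fabp4 Cxcl14 subset.

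P4 added to E2 was compared over the 3 libraries with both hormones and the 3 with E2 alone. Of 36 member tests 4 passed, where 0.0465, 0.832, 4.03 and 0.0869% of genes were called in the Dpp4 Pi16, Fabp4 Cxcl14, Penk Enpp2 and Gdf10 F3 subsets. Sparc rose further in the Penk Enpp2 subset, by 0.90 ± 0.15 (edgeR adjusted p = 0.0105), with the values above that did not overlap, and Sparcl1 fell further, by 0.49 ± 0.11 (edgeR adjusted p = 0.0302). On cluster 7 alone the Sparcl1 difference was -0.24 and did not pass (edgeR adjusted p = 0.485), while that of Sparc was 0.84 and did (edgeR adjusted p = 0.00447). Tnc rose in the Fabp4 Cxcl14 subset by 2.32 ± 0.28 (edgeR adjusted p = 0.015), and Postn in the Gdf10 F3 subset by 1.45 ± 0.18 (edgeR adjusted p = 0.0233). Postn in the Penk Enpp2 subset was higher in every P4 library than in every E2 library and missed the threshold (1.12, edgeR adjusted p = 0.069). On cluster 7 alone, a choice made after seeing the data, Postn (0.94, edgeR adjusted p = 0.0167), Fn1 (0.66, edgeR adjusted p = 0.0243) and Thbs4 (2.92, edgeR adjusted p = 0.00207) passed for P4. Both comparisons use the same E2 libraries. The count of 4 was 0 without VCD_E2 and 0 without VCD_E2_P4, and of 9 fits that left out 1 library the calls held in 5 for Sparc, 4 for Sparcl1, 6 for Tnc and 6 for Postn.

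No member was called for low or high PBDE in any subset (0 of 72 tests with edgeR, 2 with DESeq2). For low PBDE, edgeR called 0.0% of genes in the Dpp4 Pi16, 0.00816% in the Fabp4 Cxcl14, 0.0% in the Penk Enpp2 and 0.0% in the Gdf10 F3 subset, with 616, 347, 261 and 431 genes at an unadjusted p under 0.05. For high PBDE it called 0.17, 0.4, 0.0958 and 0.191%, with 2492, 2061, 1579 and 1703 genes at an unadjusted p under 0.05. The high PBDE library with E2 had the most Postn, Fn1 and Sparc of the 3 E2 libraries in the Penk Enpp2 and Fabp4 Cxcl14 subsets, a single library with no replicate.

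The remaining groups are 1 library each and have no test, and their intervals (95%, exact Poisson) cover counting error only. In VCD_E2_ICI, Postn of the Penk Enpp2 subset stood at 1334 CPM (1297 to 1373), between VCD_E2 at 3014 CPM (2951 to 3077) and VCD_Vehicle at 722.6 CPM (701.1 to 744.6). Sparc stood at 3748 CPM against 6714 and 2660 CPM, and Fn1 at 1012 CPM against 1325 and 682.6 CPM, so that all 3 lay between the E2 and vehicle libraries. Sparcl1 lay above both, at 1463 CPM against 963.5 and 1213 CPM, and Tnc below both, at 176.9 CPM against 233 and 343.7 CPM. In the Fabp4 Cxcl14 subset Fn1 with ICI (192.6 CPM) was at the vehicle level (197.3 CPM) with 596.5 CPM in VCD_E2, and cluster 5 held 1.45% of that subset's cells (6 cells) in the ICI library. Thbs2 of the Dpp4 Pi16 subset stood at 291.6 CPM with ICI, 507.1 with E2 and 355.7 CPM with vehicle. Thbs1 of the Penk Enpp2 subset stayed near E2, at 619.1 CPM with ICI, 653.6 with E2 and 358.3 CPM with vehicle. Postn of the Gdf10 F3 subset lay above both, at 120.6 CPM against 89.82 and 60.35 CPM. VCD_E2_ICI shared 13 barcodes with VCD_E2 and 4 with VCD_Vehicle, and the part of the barcode pattern was not tested.

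Intact mice had less Tnc in the Penk Enpp2 subset than VCD_Vehicle, 62.95 CPM (57.32 to 68.98) against 343.7 CPM (328.9 to 359), and the lowest level of the 12 libraries. Postn was higher in the same cells, at 1625 against 722.6 CPM, as were Fn1 at 1354 against 682.6 CPM and Thbs1 at 702.6 against 358.3 CPM. Sparc differed little (2949 and 2660 CPM), and the intervals of Sparcl1 overlapped (1186 and 1213 CPM). These directions match those of E2 against no hormone in sign for Postn, Fn1, Thbs1 and Tnc, with VCD_Vehicle a library of both comparisons. Intact and VCD_Vehicle differ in VCD and in the diet start given for them, which cannot be told apart. VCD_Vehicle_NormEnv differed from VCD_Vehicle, with Sparc of the Penk Enpp2 subset at 4770 against 2660 CPM and Fn1 of the Gdf10 F3 subset at 1654 against 994.5 CPM. Postn (603.5 against 722.6 CPM) and Tnc (286.8 against 343.7 CPM) of the Penk Enpp2 subset differed less. Spread between libraries and the possible PBDE exposure of VCD_Vehicle_NormEnv cannot be told apart here.

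Outside fibroblasts, some members had a higher level in immune, nerve sheath, vessel or epithelial cells than free RNA from fibroblasts would give. As a bound, each member's level over all fibroblasts was scaled by the largest of the ratios of Col1a1, Col3a1 and Dcn, 3 fibroblast genes, in the cell type. The fibroblast level is summed over all libraries, so it does not bound single libraries for members that vary with hormone. Postn over all fibroblasts, for one, ranged from 286.9 to 2701 CPM. Thbs1 stood at 3635 CPM in 266 neutrophils, whose bound was 8.26 CPM, and ranged from 1970 to 6001 CPM over the 4 libraries with at least 20 of these cells. In 701 monocytes it stood at 1621 CPM (bound 4.75 CPM, 737.6 through 1431 to 2392 CPM over 11 libraries), and 63.9% of these cells had a UMI, against 5.75% of T cells at a median of 9825 and 5154 UMIs. All fibroblasts together held 260.6 CPM. Dendritic cells held 152.1 CPM (bound 7.46 CPM). In 69 basal epithelial cells Thbs1 stood at 562.9 CPM (bound 131.4 CPM), with a UMI in 72.5% of them, and in 238 luminal epithelial cells at 76.8 CPM (bound 33.85 CPM). The luminal level was 2.27 times its bound, no more than in T cells (2.29 times, 12.78 against 5.59 CPM).

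Fn1 was carried by dendritic cells and monocytes as well as fibroblasts. In 1058 dendritic cells it stood at 1744 CPM, with a bound of 71.5 CPM and 860.6 through 1636 to 2520 CPM over the libraries, and 74.8% of these cells had a UMI. Monocytes held 604.3 CPM (bound 45.5 CPM). Macrophages held 581.8 CPM, below their bound of 706.1 CPM, so their Fn1 cannot be told apart from free RNA by this measure. Over hormone levels Fn1 in dendritic cells ranged from 860.6 to 2520 CPM without hormone, 1245 to 2200 with E2 and 1078 to 1811 CPM with both, groups that overlapped.

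Spp1, rare in fibroblasts (0.875 CPM over all of them), stood at 142.3 CPM in 743 natural killer or innate lymphoid cells (bound 0.0191 CPM), at 27.98 through 122.5 to 338.8 CPM over 11 libraries, with a UMI in 15.8% of cells against 0.950% of T cells. It stood at 115.3 CPM in neutrophils (bound 0.0277 CPM), 190.7 CPM in 78 Schwann cells, 32.4 CPM in monocytes and 26.4 CPM in dendritic cells. Its range in monocytes was wide, from 0 through 5.41 to 159.6 CPM over 11 libraries, with a UMI in 3.85% of cells. Tnc stood at 151.8 CPM in Schwann cells (bound 6.97 CPM), with a UMI in 18.0% of them, above the 24.65 CPM of all fibroblasts.

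Sparc and Sparcl1 were above their bounds in some vessel and nerve sheath cells. Sparc stood at 6678 CPM in 42 pericytes or smooth muscle cells (bound 1186 CPM), 5474 CPM in Schwann cells (bound 1419 CPM) and 5019 CPM over all fibroblasts. Sparcl1 stood at 1589 CPM in 125 endothelial cells (bound 586 CPM) and 969.5 CPM in pericytes (bound 187.1 CPM), against 791.6 CPM in fibroblasts, and was under its bound in Schwann cells (218 against 223.8 CPM). Both genes were under their bounds in lymphatic endothelial cells. Postn stood at 1483 CPM in pericytes (bound 254.5 CPM) and 862.1 CPM in Schwann cells (bound 304.4 CPM). Tnxb stood at 404.2 CPM in 58 lymphatic endothelial cells (bound 82.5 CPM). Thbs2 was at or under 1.43 times its bound in each of the other cell types. The vessel, Schwann and lymphatic cells are few and most come from libraries with under 20 of them, so these levels have no spread over libraries.

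**Figure D3:**
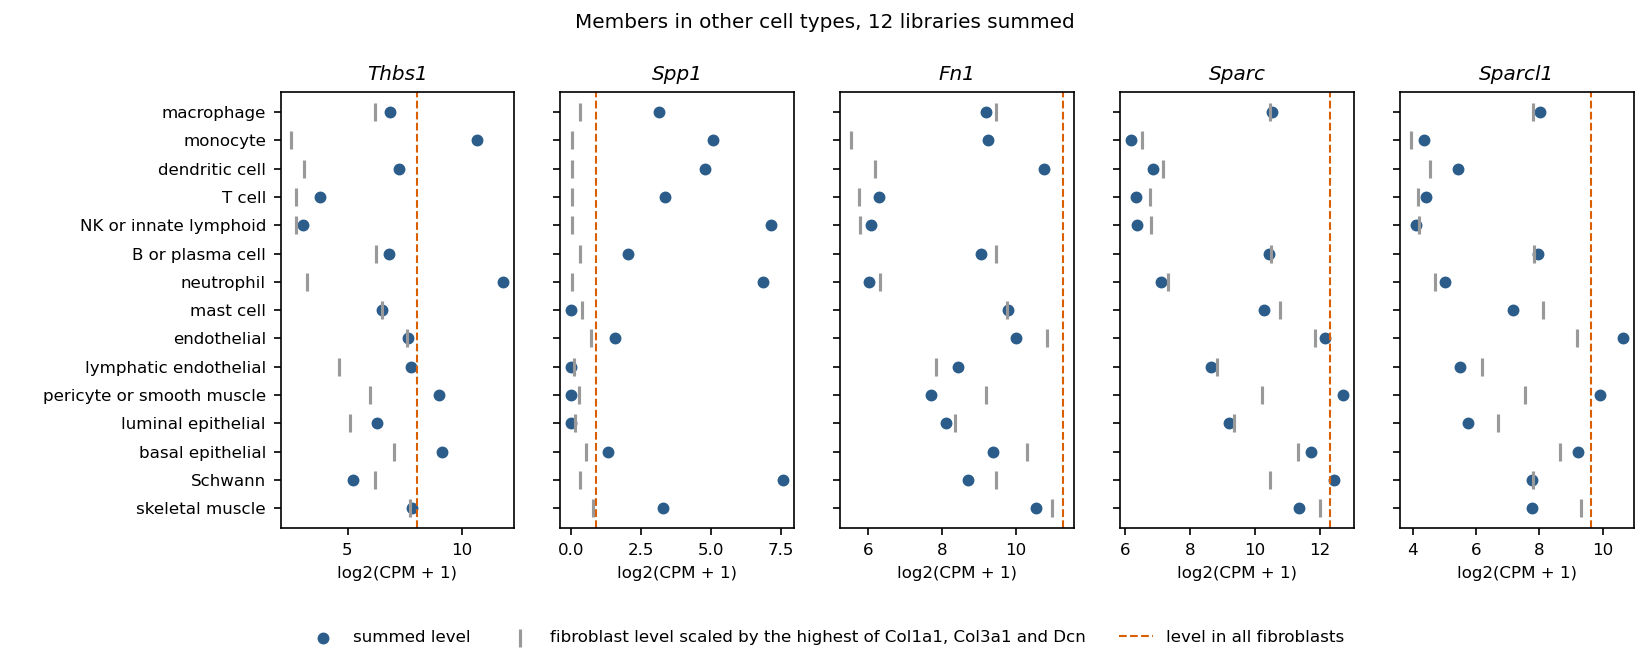
Level of Thbs1, Spp1, Fn1, Sparc and Sparcl1, as log2(CPM + 1), in 15 cell types outside the fibroblasts. Grey ticks mark the fibroblast level scaled by the highest of the Col1a1, Col3a1 and Dcn ratios, and the dashed line marks all fibroblasts. Thbs1 in neutrophils (3635 CPM) and monocytes (1621 CPM) lies far above its ticks of 8.26 and 4.75 CPM.

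In immune cells the hormone comparisons called next to nothing. For E2, edgeR called 0.0% of genes in macrophages, 0.0224% in dendritic cells and 0.0% in T cells (1099, 625 and 305 genes at an unadjusted p under 0.05), and no member. For P4 it called 0.0211% in macrophages, 0.0% in dendritic cells and 0.0% in T cells (542, 587 and 590 genes at an unadjusted p under 0.05). The only member called was Postn in macrophages, by 3.43 (edgeR adjusted p = 0.0165), with 48.66 to 121.7 CPM with E2 and 530.7 to 1892 CPM with both. Macrophages held Col1a1, Col3a1 and Dcn at 25.4, 28.3 and 22.9% of the fibroblast level, and their Postn was 1.39 times its bound. T cells, at 1.48 to 2.15% by the same genes, had Postn at 12.9 to 33.3 CPM with E2 and 26.9 to 55.8 CPM with both, ranges that overlapped. The part of free fibroblast RNA in the macrophage difference was not tested.

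Genes related to the members were read from lists chosen with these data known. Of 17 relatives (other matricellular and matrix-modifying proteins), 11 were tested for E2 in the Penk Enpp2 subset, where 3 rose and 5 fell (31.1% of all genes were called), with a median of 0.06 beside -0.02 over all genes. Vcan, the large hyaluronan-binding proteoglycan versican, rose by 1.76 ± 0.10 (edgeR adjusted p = 2.17e-06). Bmp1, the protease that trims procollagen, rose by 0.56 ± 0.11 (edgeR adjusted p = 0.00319), and Fstl1, a secreted SPARC-domain protein, by 0.63 ± 0.10 (edgeR adjusted p = 0.00109). Tgfbi, the closest relative of periostin, changed in the opposite direction to Postn, by -2.88 ± 0.14 (edgeR adjusted p = 9.96e-07). Fbln1, a fibronectin-binding fibulin, changed by -1.93 ± 0.19 (edgeR adjusted p = 4.36e-05), Ecm1 by -1.16 ± 0.10 and Spock2, another SPARC-domain protein, by -1.02 ± 0.14. Thbs3, a thrombospondin outside the member list, changed by -0.70 ± 0.13. P4 added to E2 raised Fstl1 and Vcan and lowered the same 5 genes of 11 tested in this subset, where 4.03% of all genes were called.

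In the Fabp4 Cxcl14 subset 2 relatives rose (Bmp1 and Vcan) and 5 fell (Ecm1, Fbln1, Fbln2, Smoc2 and Tgfbi) of 11 tested, where 15.9% of all genes were called, with Vcan at 1.25 ± 0.15, Tgfbi at -2.18 ± 0.29 and Fbln1 at -2.35 ± 0.18. In the Dpp4 Pi16 subset Smoc2 rose and Spock3 and Tgfbi fell of 13 tested (11.7% of all genes called), and in the Gdf10 F3 subset Vcan rose and Fbln1, Smoc2 and Tgfbi fell of 12 (3.23% of all genes called). Tgfbi was thus lower with E2 in each of the 4 subsets.

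Of 23 receptors of matricellular proteins, 18 were tested for E2 in the Penk Enpp2 subset, 7 rose and 4 fell (31.1% of all genes were called), and their median was 0.32 beside -0.02 over all genes. Sdc1, the heparan sulfate receptor syndecan-1, rose by 2.67 ± 0.13 (edgeR adjusted p = 9.96e-07). Itgav, the alpha-V chain of the integrins that bind periostin, osteopontin and fibronectin, rose by 1.15 ± 0.12 (edgeR adjusted p = 4.44e-05), with its partner chains Itgb1 at 0.50 ± 0.10 and Itgb5 at 0.49 ± 0.10. Itga1, Egfr and Lrp1 also rose. Itga11, a collagen-binding integrin chain, changed by -1.50 ± 0.21 (edgeR adjusted p = 0.000435), Sdc4 by -0.72 ± 0.14, the collagen receptor Ddr2 by -0.48 ± 0.11 and Cd47, the thrombospondin receptor, by -0.30 ± 0.10 (edgeR adjusted p = 0.048).

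In the Fabp4 Cxcl14 subset 5 of 19 receptors rose and 1 fell, where 15.9% of all genes were called: Sdc1 by 3.02 ± 0.22, the thrombospondin receptor Cd36 by 1.88 ± 0.46, Itgb8 by 1.88 ± 0.39, Itgav by 0.77 ± 0.08 and Itgb3 by 0.64 ± 0.19, with Itga11 at -1.11 ± 0.14. Itgb8 and Itgb3 pair with Itgav. In the Dpp4 Pi16 subset Sdc1 and Stab1, a scavenger receptor that takes up SPARC, rose and Ddr2, Itga11 and Itga9 fell of 20 tested (11.7% of all genes called), and in the Gdf10 F3 subset Cd36 and Sdc1 rose of 18 with none lower (3.23% of all genes called). Sdc1 rose in all 4 subsets. Of the TGF-beta genes set beside the list, Tgfbr2 rose by 0.48 ± 0.13 and Tgfbr1 changed by -0.43 ± 0.12 in the Penk Enpp2 subset, while Tgfb1 did not pass (0.14 ± 0.12, edgeR adjusted p = 0.385).

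The genes whose levels most resembled those of the members were listed by Pearson's r of log2 CPM across 48 sums (4 subsets in 12 libraries) among 7754 genes, as a description over points that share libraries and depth. Postn was most like Txndc5 (r = 0.923), Chsy1 (0.907) and Rnf149 (0.901), and Sparc most like Col3a1 (0.967), Col5a1 (0.939) and Erp29 (0.936). Tnc was most like Hmcn1 (0.945), Mark1 (0.944) and Crabp1 (0.928). Fn1 was most like Eef1b2 (0.918), Crispld1 (0.901) and Igfbp4 (0.899), and Tnxb like Qpct (0.856), Stxbp6 (0.842) and Hdac4 (0.839).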

How the data were processed

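The deposited values are raw UMI counts, which the authors obtained by running Cell Ranger 3.1.0 (mm10) on Chromium v3 libraries. They were not normalized. The labels name a HiSeq and the methods a NovaSeq instrument. The members and gene lists were chosen with earlier results of these data known.

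Barcodes under 500 genes or 1000 UMIs, or over 5% mitochondrial UMIs, were dropped. Clusters were made without batch correction with igraph 0.11.9 (3000 variable genes without the members, 30 principal components, 20 neighbours). Cell types were named from markers, some limits of the naming (such as 16000 CPM of fibroblast genes) having been set after seeing the data. Fibroblasts were cells of fibroblast clusters in which Cspg4, Pecam1, Cd52, Ptprc, Krt14 and Epcam were all at 0 UMIs. A fibroblast joined the subset with the highest mean marker score if it led the next by at least 0.3. The markers were Dpp4, Pi16, Sema3c, Cd55, Ackr3, Smpd3 and Akr1c18 for the Dpp4 Pi16 subset, Fabp4, Cxcl14, Col15a1, Col5a3, Pparg and Lpl for the Fabp4 Cxcl14 subset, Penk, Enpp2, Mdk, Scg3, Srpx, Apoe and Mfap4 for the Penk Enpp2 subset, and Gdf10, F3, Gas6, Fmo2, Inmt, Clec11a, Tmem176a and Tmem176b for the Gdf10 F3 subset. No doublet caller was applied in the main analysis. Dropping the expected doublets was an alternative.

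Counts were summed per library and class, for sums of at least 20 cells, and tested with edgeR 4.0.16 (quasi-likelihood test, TMM, filterByExpr, Benjamini-Hochberg adjustment over all genes tested, threshold 0.05) in R 4.3.3. Hormone and PBDE terms were fitted over 9 libraries (4 residual degrees of freedom), and subset contrasts with a library block. In such sums fewer cells making a gene and less mRNA per cell cannot be told apart. Within-level and single-library log2 ratios were taken on log2(CPM + 1). DESeq2 1.42.0 was an alternative. Simulated counts with known changes served to test the fits. Intervals are 95% exact Poisson or binomial (Clopper-Pearson) and cover counting error only, since cells of 1 library are not replicates. Named genes were the 10 members, the called genes of the lists of relatives and receptors, and the 3 genes most like a member.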

Additional observations from a re-analysis of the deposited data

Results flagged for a closer look

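The E2 effect on 6 members differed between fibroblast subsets by a test of the difference itself (edgeR, 36 sums, library block), given as the log2 effect in a subset minus the mean of the other 3. For Fn1 it was -2.13 in the Dpp4 Pi16, 2.3 in the Fabp4 Cxcl14, 0.93 in the Penk Enpp2 and -1.09 in the Gdf10 F3 subset. For Postn it was -2.29 in the Dpp4 Pi16 and 1.99 in the Penk Enpp2 subset, and for Tnc 4.33 in the Fabp4 Cxcl14 (over 9, 8 and 3 UMIs without hormone) and -2.44 in the Penk Enpp2 subset. The second Tnc value is set against a mean that includes the Fabp4 Cxcl14 effect, so neither size can be read. For Sparc and Sparcl1 it was 1.47 and -0.62 in the Penk Enpp2 subset, and for Thbs2 0.8 in the Dpp4 Pi16 subset. Each hormone level has 3 libraries, so the test for an outlying sample, which needs at least 4, was not applied.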

How the results depend on the processing

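The 33 member and subset differences stayed at 32 to 34 under every alternative tried. The count of E2 calls was 22 and ranged from 11 to 22 when 1 library was left out (11 without VCD_Vehicle or VCD_Low_PBDE, 12 without VCD_Low_E2 or VCD_High_PBDE_E2_P4 and 14 without VCD_E2_P4), with 9 without the E2_P4 libraries and 16 with a stricter gate or with Louvain clusters as subsets. The 22 include the calls named above that passed the low-count filter only through libraries with hormone. P4 calls were 4, with 8 with DESeq2, 12 with no low-count filter, 2 with Louvain clusters and from 0 to 10 with 1 library left out (0 without VCD_E2 or VCD_E2_P4, 1 without VCD_Low_E2, 2 without VCD_Low_E2_P4 or VCD_High_PBDE_E2_P4, 9 without VCD_High_PBDE_E2 and 10 without VCD_High_PBDE). PBDE calls were 0, with 2 under DESeq2, 5 with no low-count filter and from 0 to 3 with 1 library left out (3 without VCD_Low_E2_P4 and 1 without VCD_High_PBDE). E2 effects that differed by subset numbered 11, with 7 without the E2_P4 libraries and from 7 to 11 with 1 library left out (7 without VCD_Vehicle, VCD_Low_PBDE or VCD_High_PBDE). Over the Fabp4 Cxcl14 and Penk Enpp2 subsets 9 of 15 E2 calls passed on the same clusters only, of 13 that could be tested there. The share of Penk Enpp2 cells with a Tnc UMI moved from 37.9 to 29.2% when thinned, without the 292 shallower cells. Among results called in either setting, the signs that reversed were those of Sparcl1 for E2 in the Fabp4 Cxcl14 subset on the same clusters only (0.17) and of Thbs2 in that subset against the others with Louvain clusters (0.062). The cause was not tested beyond the smaller number of libraries where some were left out. The removal of shared barcodes or of the low-depth cluster or cluster 37, the fits on the same clusters and the PBDE alternatives other than DESeq2 were chosen after seeing the data.

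Over all genes, E2 calls in the Penk Enpp2 subset were 3570 and 2305 with DESeq2, and in the Gdf10 F3 subset 372 and 831 unfiltered. P4 calls in the Dpp4 Pi16, Fabp4 Cxcl14 and Gdf10 F3 subsets were 6, 102 and 10, with DESeq2 122, 290 and 41, and unfiltered 50, 498 and 152, and in the Penk Enpp2 subset 462 and 919 unfiltered. High PBDE calls were 22, 49, 11 and 22 in the 4 subsets, 317, 195, 74 and 94 with DESeq2 and 146, 283, 256 and 288 unfiltered. Low PBDE calls were 0, 1, 0 and 0, with DESeq2 3, 9, 3 and 3 and unfiltered 0, 9, 14 and 39. E2 effects by subset in the Gdf10 F3 subset were 208 and 367 with DESeq2. No paired analysis by replicate number was possible because each group is 1 library. The subset comparisons have the library as a block, and the hormone fits have PBDE level as a term.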
